A study of Mus musculus with 5 samples.

Results

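Tetraspanins are small membrane proteins that span the plasma or endosomal membrane several times and gather integrins, proteases and signalling receptors into membrane domains. They hold an extracellular loop closed by disulfide bonds, whose hallmark is a Cys-Cys-Gly motif. Some, such as CD9, CD81 and CD63, are made by most cell types and mark extracellular vesicles, whereas others belong mainly to epithelium, endothelium or leukocytes. The 10 genes described here, Tspan1, Tspan3, Tspan8, Tspan12, Tspan15, Cd9, Cd63, Cd81, Cd82 and Cd151, were picked by symbol. All 10 were present among the 16992 gene symbols shared by the 5 deposited tables. The pancreas of C57BL/6 mice aged 2 to 4 months was the source of the cells, and RNA of freshly sorted fractions was sequenced. CD133(positive)CD71(negative) cells, called the positive sort below, gave 2 libraries, and CD133(high)CD71(low) cells, called the high sort, gave 3. A second label describes the high sort as positive for both markers. CD133 is encoded by Prom1 and CD71, the transferrin receptor, by Tfrc. The labels name no transgene or treatment and do not say whether the libraries came from separate or pooled animals, and p-values therefore cover just the scatter of the libraries, which may be technical.

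The family signature was found in the coding sequence of every gene described, and the stretch that holds it is shown to identify the members whose levels follow. The search was for in-frame codons for cysteine (TGT or TGC), cysteine again and glycine (GGN) in GENCODE M21 transcripts on mm10, 1 protein-coding transcript per gene and sense strand only. All 10 members held a match, as did all 21 of the other tetraspanin genes searched, against 2.53% of 21760 protein-coding genes. Cd9, Cd63, Cd81 and Tspan8 held more than 1 match, and the match nearest to codon 150 is printed. These matches began at codons 145 to 159 of coding sequences of 226 to 305 codons. In all 10 stretches an exon junction lay 6 bases before the first cysteine codon, so the genomic span given includes an intron and both flanks are exonic coding sequence. Capitals mark the cysteine, cysteine and glycine codons.
Cd81 (chr7:143066347-143066693, plus strand): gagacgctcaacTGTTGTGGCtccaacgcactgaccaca
Cd9 (chr6:125462171-125462332, minus strand): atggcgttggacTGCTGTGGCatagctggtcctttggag
Cd63 (chr10:128912058-128912193, plus strand): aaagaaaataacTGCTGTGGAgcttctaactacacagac
Cd151 (chr7:141470220-141470342, plus strand): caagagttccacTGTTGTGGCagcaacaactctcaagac
Cd82 (chr2:93420723-93421832, minus strand): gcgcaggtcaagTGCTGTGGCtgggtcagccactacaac
Tspan3 (chr9:56145895-56146519, minus strand): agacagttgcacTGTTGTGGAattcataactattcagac
Tspan12 (chr6:21795689-21799884, minus strand): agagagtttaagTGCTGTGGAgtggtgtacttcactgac
Tspan8 (chr10:115835378-115839907, plus strand): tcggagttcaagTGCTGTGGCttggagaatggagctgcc
Tspan15 (chr10:62191552-62193872, minus strand): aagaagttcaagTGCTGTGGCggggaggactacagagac
Tspan1 (chr4:116163748-116163867, minus strand): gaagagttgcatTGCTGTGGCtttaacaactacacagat

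Levels are given as deposited and have the properties of RPKM (reads scaled to transcript length and library depth), so levels of different genes can be set side by side. Library 3 of the high sort was made with other gene models than the other 4 libraries and resembled libraries 1 and 2 of the high sort less (Pearson r over genes 0.911 and 0.920) than these resembled each other (0.994). Depths read from the steps of low values were 19.8 to 41.4 M reads (M, 1e6). The shared genes held 99.6% of the deposited total in each of the other 4 libraries but 87.3% in library 3, which limits comparison with it. The acinar list, led by the digestive enzyme genes Amy2a5 and Ctrb1, took 60.9% to 64.5% of the RPKM of shared genes in the positive sort. It took 56.5% and 57.2% in libraries 1 and 2 of the high sort, and 32.4% in library 3. The median of all genes tested was 0.31 higher in the high sort on the log2(RPKM + 1) scale, and member differences are to be read against that shift. With median-of-ratios scaling, which sets the typical gene level across libraries, it was 0.02. The gene of the sorting marker CD133, Prom1, averaged 47.3 ± 2.14 (SD, n = 2) in the positive sort and 93.6 ± 34.4 (SD, n = 3) in the high sort, and Tfrc 4.18 ± 0.26 and 8.13 ± 3.61. Over all 5 libraries neither gene passed (limma adjusted p = 0.0909 and 0.151). Without library 3 both did (limma adjusted p = 0.000208 and 0.0112).

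Both populations expressed the same members in nearly the same order, and none of the members passed the test between populations over all 5 libraries. Cd81, Cd9 and Cd63 led in every library and together made up 71.0% to 72.5% of the members' summed RPKM. That sum was 498 and 519 in the positive sort and 610.03, 605 and 667 in the high sort, so the groups did not overlap. With median-of-ratios scaling the group means were 589 and 573, and the order of the groups was the reverse. Of the 10 members 9 had a mean of at least 1 and were tested. With limma 0 of 9 were higher and 0 of 9 lower at an adjusted p under 0.05, where 6.25% of all 11769 genes tested were higher and 7.22% lower (735 and 850 genes). With median-of-ratios scaling 0 of 9 were called as well, where 1.93% of all genes were higher and 9.68% lower (227 and 1141). At an unadjusted p under 0.05, 3 members (Tspan15, Cd9 and Cd82) were higher and 0 lower, where 27.5% and 9.18% of all genes were. Their median log2 fold change was 0.34, beside 0.31 for all genes tested. In 7 of the 10 members the lowest value of the high sort exceeded the highest of the positive sort, which also held for 58.2% of all genes tested. In such sorted bulk samples, fewer cells of a type and less RNA per cell cannot be told apart.

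**Figure D1:**
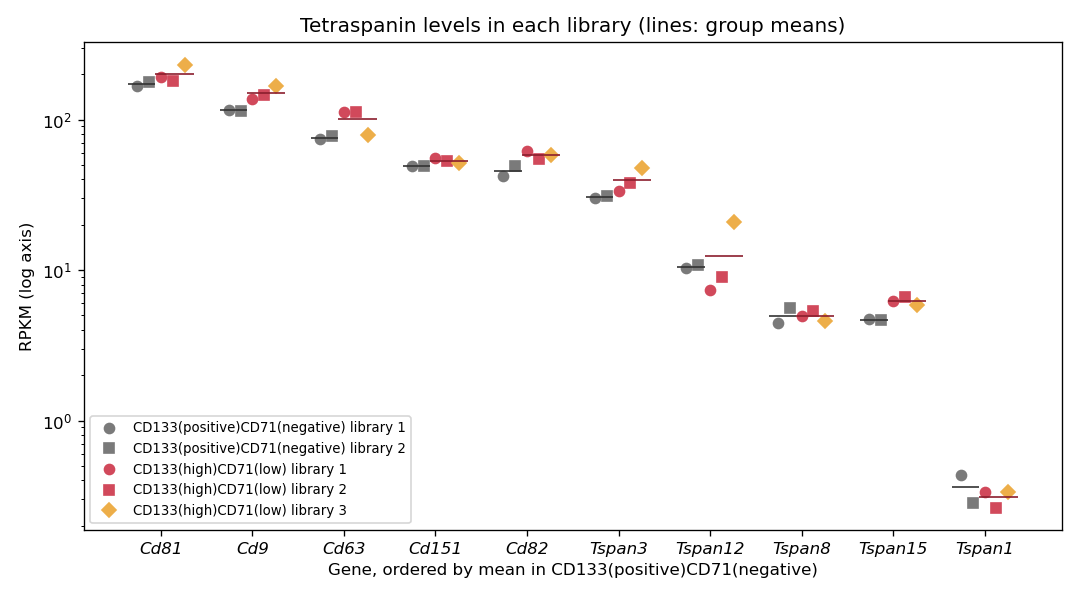
RPKM on a log axis of each of the 10 tetraspanin genes in the 5 libraries, ordered by the mean in the positive sort; horizontal lines are group means. Cd81 is the highest and Tspan1 the lowest gene in every library, and Cd63 and Tspan12 are the genes in which library 3 lies far from libraries 1 and 2 of the high sort.

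Cd81, the most abundant member, encodes a tetraspanin that binds immunoglobulin-family membrane proteins and is made by most epithelial and stromal cells. It measured 166 and 177 in the positive sort and 192, 181 and 232 in the high sort. All high-sort libraries were above the others, by a narrow margin except in library 3. The log2 fold change was 0.23 (SE 0.16, 95% interval -0.16 to 0.62, limma adjusted p = 0.301), and under median-of-ratios scaling its sign turned, at -0.12. Cd81 ranked between 118th and 176th of all shared genes in every library. Cd9, whose product binds integrins and immunoglobulin-family partners and is needed for egg and sperm fusion in mice, measured 116 and 114 against 138, 145 and 168. Its groups did not overlap, and the log2 fold change was 0.38 (SE 0.14, limma adjusted p = 0.119). Without library 3 it passed (log2 fold change 0.29, limma adjusted p = 0.0113), but not after those 4 libraries were scaled by the median of ratios (0.06, limma adjusted p = 0.572).

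Cd63 encodes a tetraspanin of late endosomes, lysosomes and exosomes. It was 73.7 and 78.2 in the positive sort and 111, 112 and 79.4 in the high sort. Libraries 1 and 2 of the high sort stood well above the other population, and library 3 stood barely above it. The log2 fold change over all libraries was 0.39 (SE 0.19, limma adjusted p = 0.186), and 0.05 with median-of-ratios scaling (SE 0.28, limma adjusted p = 0.931). Without library 3 it was 0.55 (SE 0.077, limma adjusted p = 0.000426), and it still passed when those 4 libraries were scaled by the median of ratios (log2 fold change 0.32, limma adjusted p = 0.00804). Relative to Cd81 in the same library, a measure that does not change when a library is multiplied by a factor, Cd63 stood at 0.443 in both libraries of the positive sort and at 0.580, 0.617 and 0.342 in the high sort. Relative to Cd9 it stood at 0.635 and 0.684 against 0.810, 0.770 and 0.472. In both ratios library 3 thus lay on the other side of the positive-sort libraries from libraries 1 and 2. Cd9 itself stood at 0.698 and 0.647 of Cd81 in the positive sort and at 0.716, 0.801 and 0.725 in the high sort, with library 3 between the others. The gene models of library 3 and its cells cannot be told apart as the source of its Cd63 level.

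**Figure D2:**
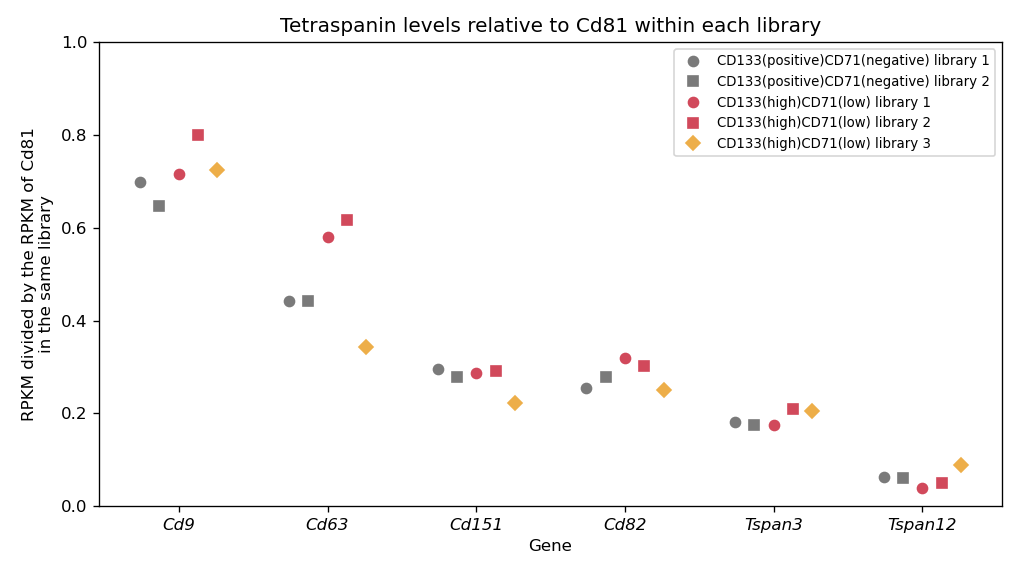
RPKM of 6 members divided by the RPKM of Cd81 in the same library, for the 2 libraries of the positive sort and the 3 of the high sort. Cd63 is higher relative to Cd81 in libraries 1 and 2 of the high sort (0.580 and 0.617) than in the other population (0.443 in both), and lower in library 3 (0.342).

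Cd82 and Cd151 were the next in level and exchanged places between populations. Cd82 encodes a tetraspanin known for restraining tumour cell migration, and Cd151 encodes the tetraspanin that binds laminin-binding integrins most tightly. Cd82 measured 42.4 and 49.2 in the positive sort and 61.4, 54.7 and 57.8 in the high sort. Cd151 measured 49.1 in both libraries of the positive sort and 55.2, 52.7 and 51.3 in the high sort. Cd82 was above Cd151 in all 3 high-sort libraries and in 1 of the 2 positive-sort libraries. The ranges of the 2 genes overlapped in each population, so over libraries their levels were not separated. Their order also depends on the transcript lengths used, which are not given, and Cd82 transcripts run from 1003 to 1824 bases. The log2 fold change was 0.34 for Cd82 (SE 0.13, limma adjusted p = 0.124), with an adjusted p of 0.0179 without library 3 and of 0.348 with median-of-ratios scaling as well. For Cd151 it was 0.11 (SE 0.11, 95% interval -0.16 to 0.38, limma adjusted p = 0.437), and it was -0.23 under median-of-ratios scaling.

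Tspan3, a widely expressed member, was the sixth gene in every library. It measured 30.2 and 31.0 in the positive sort and 33.4, 38.1 and 47.6 in the high sort, with no overlap (0.35 on the log2 scale, SE 0.17, limma adjusted p = 0.187). The 6 genes from Cd81 to Tspan3 lay at or above the 92.7th percentile of all shared genes in every library, and 5 of them, all but Tspan3, were in the top 5%. A wide step followed, since Tspan3 was 2.91 times as high as the next gene, Tspan12, in the positive sort and 3.21 times in the high sort.

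Tspan12, known from retinal endothelium as a partner of the receptor Frizzled-4 in Norrin signalling, was the member whose direction depended most on library 3. It was 10.3 and 10.7 in the positive sort, 7.41 and 8.94 in libraries 1 and 2 of the high sort, and 20.7 in library 3. The first 2 thus lay below the other population and library 3 far above it. Over all libraries the log2 fold change was 0.08 (SE 0.42, 95% interval -0.96 to 1.12, limma adjusted p = 0.88). Without library 3 Tspan12 was lower (log2 fold change -0.33, SE 0.10, limma adjusted p = 0.0216), also after median-of-ratios scaling of those 4 libraries (log2 fold change -0.54, limma adjusted p = 0.00409). Beside it, the endothelial list, led by Plvap and Eng, summed to 1131 and 1049 in the positive sort and to 312.7, 191 and 105 in the high sort, so library 3, the highest for Tspan12, was the lowest for endothelial genes. All 20 endothelial genes of the list fell, where 7.22% of all genes did, and none was at 0 in all libraries of the high sort. Under median-of-ratios scaling 19 of them fell, where 9.68% of all genes did. Their part in the Tspan12 level was not tested.

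The 3 remaining members were the lowest. Tspan15, whose product steers the protease ADAM10 to its substrates, measured 4.70 and 4.63 in the positive sort and 6.23, 6.59 and 5.87 in the high sort. All of the latter were above all of the former (log2 fold change 0.35, SE 0.12, limma adjusted p = 0.103), with an adjusted p of 0.00659 without library 3 and of 0.121 with median-of-ratios scaling as well. Tspan8, a tetraspanin of gut and tumour epithelium, measured 4.42 and 5.55 against 4.96, 5.34 and 4.59, and the groups overlapped. Its log2 fold change was 0.00 with a 95% interval of -0.36 to 0.36 (limma adjusted p = 0.999). Tspan8 and Tspan15 could not be ordered in the positive sort, where their ranges overlapped, whereas Tspan15 was above Tspan8 in all 3 high-sort libraries. Tspan1, a tetraspanin of secretory epithelia, was nearly silent at 0.438 and 0.281 against 0.333, 0.263 and 0.335. It was left out of the test for its low mean, and from its transcript length and the depths these values stand for about 11.1 to 27.6 reads per library. Cd81 was 574 times as high as Tspan1 on average over the 5 libraries.

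Without library 3, 4 of the 9 tested members rose (Tspan15, Cd9, Cd63 and Cd82) and 1 fell (Tspan12). In that comparison 40.9% of all genes rose and 12.2% fell (53.1% in either direction), so the members' share of rises was close to that of all genes. When the same 4 libraries were scaled by the median of ratios, Cd63 rose, Tspan12 fell and the other 7 did not pass, where 12.3% of all genes rose and 18.1% fell (30.5% in either direction). Leaving out library 1 or library 2 of the high sort gave no member called in either direction. Without library 1, 89 of all 11818 genes tested rose and 784 fell. Without library 2, 40 of 11819 rose and 561 fell. With so few calls among all genes, the lack of a member call is not particular to the members. Leaving out a positive-sort library keeps 1 library in that group, and no count is given here.

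**Figure D3:**
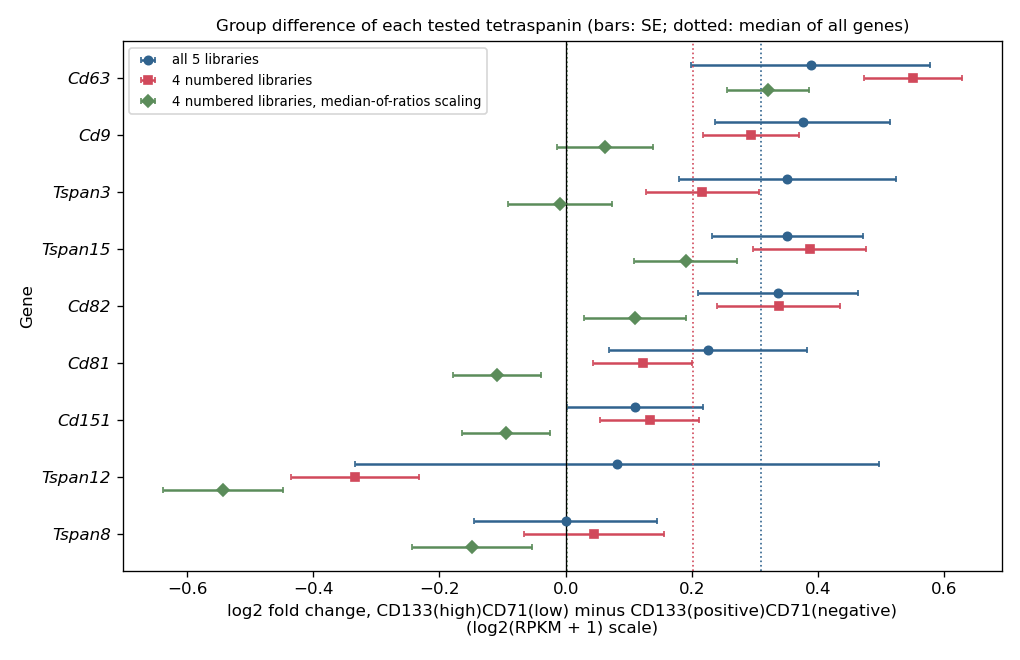
Log2 fold change of the 9 tested members, the high sort minus the positive sort on the log2(RPKM + 1) scale, with SE, over all 5 libraries, over the 4 numbered libraries and over those 4 after median-of-ratios scaling. Dotted lines are the medians of all genes (0.31, 0.20 and 0.00); in the scaled 4-library comparison Cd63 (0.32) and Tspan12 (-0.54) lie farthest from that median and are the members that passed limma.

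The other tetraspanins of the mouse genome were set beside the members, because they include the leukocyte tetraspanins proper. Of 21 such genes, 19 were measured in all libraries and 15 were tested. In limma 6 fell and 1 rose, where 7.22% and 6.25% of all genes did. Cd53 and Cd37, tetraspanins of leukocytes, fell most steeply. Cd53 was 4.37 and 3.92 in the positive sort and 0.078, 0.150 and 0.153 in the high sort, and all of the latter lay far below the former (-2.19 on the log2 scale, SE 0.11, limma adjusted p = 0.000514). Cd37 was 6.94 and 6.00 against 1.22, 1.16 and 0.463 (-1.96 on the log2 scale, SE 0.22, limma adjusted p = 0.00564). Over the same libraries the leukocyte list, led by Cd74 and Lyz2, summed to 1697 and 1665 in the positive sort and to 88.2, 75.4 and 46.6 in the high sort, with 17 of 18 tested genes fallen and none at 0 in all libraries of the high sort. The part of leukocytes in these falls was not tested. Cd81 and Cd9, which leukocytes also make, were not called in either direction. They stood at 1.18 and 1.31 times their level in the positive sort, though with median-of-ratios scaling their log2 fold changes were -0.12 and 0.04. The leukocyte sum was 24.0 times lower in the high sort, and its part in the Cd81 and Cd9 levels was not tested.

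Tspan2 (3.61 ± 0.27 to 0.770 ± 0.11) and Tspan18 (4.53 ± 0.36 to 1.55 ± 0.21; SD, n = 2 and 3), a tetraspanin of endothelium, fell as well. Named after their values were seen, Tspan5 (3.94 ± 0.47 to 1.52 ± 0.062) and Tspan13 (21.9 ± 0.40 to 8.35 ± 2.50) completed the 6. The 6 falls held under median-of-ratios scaling and without library 3. Without library 1 or 2 of the positive sort, which leaves that group with 1 library, Cd53 was the sole fall, and without library 2 of the high sort Tspan5 and Tspan13 were lost. With a mean of at least 5 required, Tspan13 alone of the 6 was tested and called. Tspan33 rose from 11.8 ± 0.14 to 17.9 ± 1.43 (0.56 on the log2 scale, limma adjusted p = 0.0395), but not under median-of-ratios scaling (log2 fold change 0.23, limma adjusted p = 0.217). Without library 1 or library 2 of the high sort it was not called, where 89 and 40 of all genes tested rose. Without library 3, 4 of the 15 tested rose, namely Tspan33, Tspan6, Tspan14 and Tspan31, where 40.9% of all genes did. When those 4 libraries were scaled by the median of ratios 1 rose, Tspan33, where 12.3% of all genes did. Over all libraries the 3 highest of the other tetraspanins did not pass. Tspan7 measured 75.2 ± 4.22 and 83.3 ± 10.9, beside 75.9 ± 3.18 and 101 ± 18.7 for Cd63, and so was close to Cd63 in the positive sort only. Tspan14 measured 34.1 ± 2.19 and 46.1 ± 2.99, and Tspan31 27.7 ± 0.49 and 33.5 ± 1.47, with limma adjusted p of 0.00566 and 0.0321 without library 3. Tspan5, Tspan14, Tspan17 and Tspan33 share with Tspan15 the binding of ADAM10. Their log2 fold changes were -0.97, 0.42, 0.19 and 0.56 beside 0.35 for Tspan15, and of the 5 genes Tspan5 fell, Tspan33 rose and the other 3 did not pass.

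**Figure D4:**
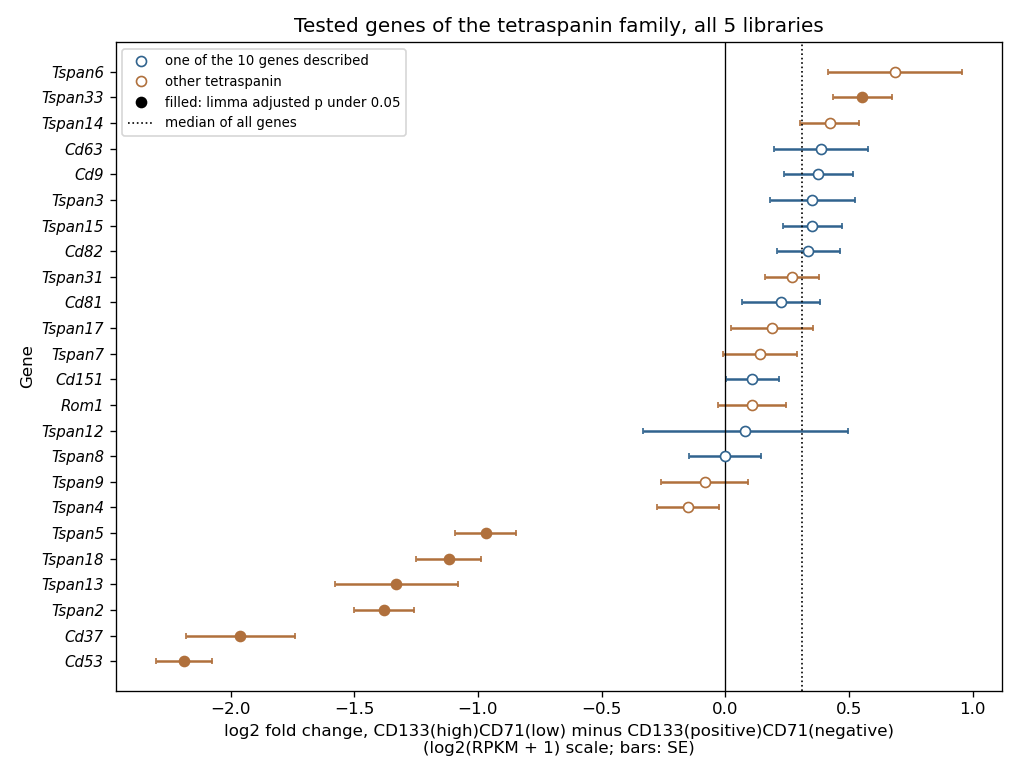
Log2 fold change with SE of the 24 tested tetraspanin genes over all 5 libraries, the high sort minus the positive sort on the log2(RPKM + 1) scale; filled points passed limma at an adjusted p under 0.05 and the dotted line is the median of all genes (0.31). The 9 tested members lie between 0.00 and 0.39, while Cd53, Cd37, Tspan2, Tspan13, Tspan18 and Tspan5 lie at or below -0.97.

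Cd81, Cd82 and Cd151 have a close tetraspanin neighbour in the genome, and each neighbour lay at a lower level. Cd81 (chr7:143052739-143067934) lies 33.1 kb from Tspan32 (chr7:143005046-143019644), a tetraspanin of blood cells. Tspan32 was 1.28 and 1.38 in the positive sort and 0.236, 0.107 and 0.121 in the high sort, too low on average to be tested, while Cd81 was 166 or more in every library. Cd82 (chr2:93419111-93463140) lies 84.6 kb from Tspan18, whose log2 fold change was -1.12 (limma adjusted p = 0.00658) beside 0.34 for Cd82. Cd151 (chr7:141467392-141471473) lies 3.77 kb from Tspan4, which measured 8.54 ± 0.89 and 7.58 ± 0.37 and did not pass (log2 fold change -0.15, limma adjusted p = 0.377).

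Genes of proteins known to bind or depend on tetraspanins moved in both directions. Of 29 such genes measured in all libraries, 26 were tested, and 4 rose and 4 fell, where 6.25% and 7.22% of all genes did. The count moved with the libraries and scaling. Without library 3, 10 rose and 8 fell. When those 4 libraries were scaled by the median of ratios, 6 rose and 12 fell. It was 0 and 3 without library 1 of the high sort, where 89 and 784 of all 11818 genes tested were called. Without its library 2 it was 0 and 2, where 40 and 561 of 11819 were called. Fits without a positive-sort library keep 1 library in that group and are not counted here. Of all genes 40.9% rose and 12.2% fell without library 3. With median-of-ratios scaling of those 4 libraries the shares were 12.3% and 18.1%. Itga3, encoding the laminin-binding integrin chain that pairs with CD151, rose from 14.9 ± 0.47 to 27.7 ± 1.86 (0.85 on the log2 scale, limma adjusted p = 0.0105). Epcam (107 ± 14.1 to 186 ± 17.3) and Cldn7 (53.7 ± 0.71 to 93.9 ± 8.43), whose products form a complex with tetraspanins in epithelium, rose too, as did the syndecan gene Sdc4 (51.5 ± 1.44 to 96.4 ± 14.3). The duct list, led by Spp1 and Krt8, summed to 3637 and 3874 in the positive sort and to 5268, 5269 and 7455 in the high sort, with 12 of 18 genes risen and none at 0, and its part in these rises was not tested. Of the 4 rises, Sdc4 alone passed under median-of-ratios scaling, and all 4 passed without library 3. None passed without library 1 or library 2 of the high sort. Few genes of any kind rose there (89 and 40 of all genes tested), so that loss is not particular to these 4.

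Fzd4, encoding the receptor that TSPAN12 assists, was 9.78 and 10.3 in the positive sort and 4.14, 3.23 and 3.42 in the high sort, and so fell (-1.27 on the log2 scale, limma adjusted p = 0.00521). Fzd4 was low in library 3 as well, where Tspan12 was at its highest. The fatty acid receptor gene Cd36 (49.1 ± 0.36 to 9.45 ± 4.03) and the adhesion molecule genes Vcam1 (3.90 ± 0.40 to 1.48 ± 0.24) and Icam1 (13.3 and 12.8 to 8.33, 7.42 and 5.40) also fell. The positive sort also had an endothelial sum 5.37 times and a leukocyte sum 24.0 times as high, and their part in these falls was not tested. With either positive-sort library left out, the positive sort keeps 1 library, and the 4 falls could not be judged. Icam1 did not pass under median-of-ratios scaling or without library 1 of the high sort, and neither Vcam1 nor Icam1 passed without library 2. Itgb1 and Adam10 are named after their values were seen. Itgb1, the shared integrin chain, measured 55.3 and 62.1 against 55.4, 57.4 and 99.0 and did not pass. Adam10, the protease that Tspan15 steers, measured 12.1 and 14.1 against 9.42, 10.3 and 18.1, with library 3 again the highest, and did not pass (log2 fold change -0.10, limma adjusted p = 0.786). Without library 3 Adam10 was lower (log2 fold change -0.37, limma adjusted p = 0.0125), also after median-of-ratios scaling of those 4 libraries (-0.59, limma adjusted p = 0.00125).

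Genes whose centred log2 values lay closest to a member over the 5 libraries were sought for 3 members among 7838 others with a mean of at least 5. For Cd63, the member with the largest log2 fold change, they were Hmgn1, 2410004N09Rik and 3110082I17Rik, at root mean square differences of 0.040, 0.048 and 0.052. Hmgn1 was 57.1 and 65.9 against 89.2, 91.9 and 63.8, and so was also high in libraries 1 and 2 and low in library 3. For Cd81 they were Mafg, Rhoj and Nsd1 (0.011, 0.013 and 0.016), and 1298 genes lay within 0.1 of it, against 52 for Cd63. For Tspan8, the member with the lowest log2 fold change, they were Csda, Fam174a and Arl8a (0.029, 0.035 and 0.044).

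The other cell type lists gave the setting of these levels. In limma, where 6.25% of all genes rose and 7.22% fell, 10 of 16 mesenchymal and 7 of 14 endocrine genes fell. The mesenchymal list was led by Sparc and Vim and the endocrine list by Ins2 and Sst. Of 34 acinar genes 0 passed in either direction in limma (0 also at an unadjusted p under 0.05). Without library 3, however, 10 of them fell, where 12.2% of all genes did. When those 4 libraries were scaled by the median of ratios 14 fell, where 18.1% of all genes did. Of 4 erythroid genes 3 rose, and the list, led by Hba-a1 and Hba-a2, summed to 11.9 and 12.1 in the positive sort and to 123, 118 and 32.5 in the high sort. Their part in the member levels was not tested. Of 6 Schwann cell genes 3 fell and 1 rose, and of 3 mesothelial genes 1 fell and 1 rose. The Schwann cell list was led by Erbb3 and Mbp. The mesothelial list was led by Krt19 and Gpm6a, and Krt19 is also in the duct list, so the former does not single out mesothelium. The platelet list, led by Pf4 and Itga2b, is relevant because platelets carry much CD9. It summed to no more than 5.01 in any library, with 1 of 2 tested genes fallen.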

How the data were processed

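Every library came as 1 table of symbols with a value each, made by the authors. The submitters' processing notes list Partek and mm10; version, aligner and gene models: not given in the sources used here. The unit is unlabelled. It was taken as RPKM because low deposited values, multiplied by transcript length, were whole multiples of 1 step per library (52.2% to 57.7% within 0.05 reads, where chance gives 10%). FPKM would look alike. The steps gave the depths, but too few values were whole to recover counts. Groups came from the titles. Libraries 1 and 2 of each group are numbered there; library 3 is not. The table of library 3 also held an alignment total of 74.2 M, which was left out as it is not a gene. That total was above the depth of 41.4 M reads from the steps of library 3, and the cause of the gap was not tested. The reads given for Tspan1 rest on the depths from the steps. Symbols that had become dates, 23 or 24 in each library, were kept unnamed.

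Values were taken as log2(RPKM + 1), which understates changes of low genes, and genes whose mean reached 1 went into a limma test (version 3.58.1, R 4.3.3; trend, group as sole term) with Benjamini-Hochberg adjustment over all genes, checked on simulated data. A single value over 2 and 3 libraries cannot go below a two-sided exact permutation p of 0.2, so none was tested that way. Median-of-ratios scaling used genes above 0 in all libraries with a mean of at least 1. Tried beside this were other scalings (median of ratios, quantile, acinar genes removed), a pseudocount of 0.1, other filters (none, mean 5), a replicate block and each library left out. Positions and sequences are from GENCODE M21. Figures used Python 3.11.15 and matplotlib 3.10.9. Members and lists were chosen with earlier results of these data known. Of the other tetraspanins and partners, up to 4 risen and 4 fallen genes by adjusted p and the 3 highest were named, of cell type lists the 2 highest, and the 3 genes most alike for the members with the largest and the lowest fold change and the highest level; genes beyond that rule are marked where named, and neighbours and ADAM10-binding tetraspanins were chosen by position or role. Tspan10, Prph2 and Ndp, which are not in all tables, were not used here.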

Additional observations from a re-analysis of the deposited data

How the results depend on the processing

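The members' calls depended on library 3 and on scaling. Members called higher and lower were 0 and 0 over all libraries, 0 to 4 and 0 to 1 with each library left out in turn, 4 and 1 with the replicate number as a block over the 4 numbered libraries, and 1 and 1 over those libraries with median-of-ratios scaling or, chosen after seeing the data, with acinar genes removed. Libraries of the same number did not deviate together (r of deviations -0.020). Whether the numbers mark a shared animal or sort cannot be told from this. The block made no other member call than leaving out library 3. Over all genes, higher calls ranged from 0 to 4785 and lower calls from 154 to 1425 with each library left out. Where this left the positive sort with 1 library, that library was assumed to vary like the high sort. Calls were 5275 and 1543 with the block, 227 higher with median-of-ratios scaling, 1446 and 2122 with that scaling over the numbered libraries, 288 and 1359 with acinar genes removed, and 2100 and 2220 with both that and library 3 left out. Lower calls were 1729 with no filter and 315 with a mean of at least 5. Fewer genes were tested in the latter. The cause of the other shifts was not tested.

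Several uncalled member differences changed sign. Tspan8 was 0.000741 with a pseudocount of 0.1, 0.045 with the block, and -0.14 to 0.14 with each library left out. Tspan12 was -0.24 with median-of-ratios scaling, -0.18 with quantile normalization, -0.22 with acinar genes removed, -0.33 with the block, -0.54 and -0.52 over the numbered libraries with scaling or acinar removal, and -0.33 to 0.35 with each library left out. With median-of-ratios scaling Cd81 was -0.12, Cd82 -0.000144 and Cd151 -0.23. Cd151 was -0.16 with quantile normalization. With acinar genes removed Cd81 was -0.084 and Cd151 -0.20, and over the numbered libraries -0.047 and -0.034. In those libraries with median-of-ratios scaling Tspan3 was -0.0090, Cd81 -0.11 and Cd151 -0.095. Cd9, Cd63 and Tspan15 kept their sign under all 14 alternatives, but were 0.04, 0.05 and 0.06 with median-of-ratios scaling (limma adjusted p 0.885, 0.931 and 0.832). The members' sum was 589 and 573 with median-of-ratios scaling, 550.03 and 559 over the numbered libraries with it, and 1303 and 1301 with acinar genes removed, for the positive sort and the high sort. With each library left out it was 498 to 519 and 608 to 639. In the abundance order 8 to 10 members kept their place in the positive sort and 10 in the high sort. With 11.1 to 27.6 reads, depth limits Tspan1.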
